A study of Mus musculus with 22 samples.

Results

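The expression of 10 genes that are known to rise in reactive astrocytes or that belong to the complement system was examined in 22 single mouse astrocytes whose calcium response to ethanol (EtOH) had been recorded. The genes are *Cd44*, *S1pr3*, *Serpina3n*, *Lcn2*, *Steap4*, *C3*, *C4b*, *Serping1*, *Cxcl10* and *Ccl2*, found by symbol among the 23453 gene symbols of the count table. All 10 were in the table and each had a read in at least 1 cell. The cells were primary astrocytes grown from the cortex of newborn C57BL/6 pups, and all of them, the NR cells included, had been exposed to EtOH. The paper describes a brief exposure to the highest EtOH dose it tested, with cells collected at an earlier or a later time after it. Which of these times applies to a cell here is not given. They were sorted by the shape of the calcium signal into 6 S-type cells (a slow, sustained rise), 6 T-type cells (a sharp, transient rise), 5 M-type cells (a mixture of both) and 5 NR cells (no response). The labels give no unexposed cell, no animal, no culture and no collection time for a cell, so each type counts as 1 sample, no test between types was possible, and all differences below are descriptions of these cells.

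Astrocytes that meet injury, infection or inflammatory cytokines change into a reactive state, in which they raise acute-phase and iron-sequestering proteins, adhesion molecules, chemokines and parts of the complement cascade. Complement is a chain of plasma and tissue proteins that tags cells, debris and synapses. C4 and C3 are its central components, and the C1 inhibitor encoded by *Serping1* restrains its first step. *C3* and *Serping1* are commonly used markers of the state that microglial cytokines induce, while *Lcn2*, *Serpina3n*, *Steap4*, *S1pr3* and *Cd44* mark reactive astrocytes more widely.

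The libraries held 2937786 to 22131076 reads per cell, lowest in T-type (2937786 to 19279519) and highest in M-type (19030121 to 22131076). A cell had a read for 6319 to 13070 genes. Counts were divided by a size factor for each cell, and the mean of these normalized counts over the cells of a type is its level below. The size factors ran from 0.183 to 2.315, with the lowest in T-type, where a few reads can therefore become a large normalized count. Of 12 astrocyte markers, every cell had a read for at least 11. Since a single read sufficed, this does not establish the identity of a cell. By the same count T-type cell 1 and NR cell 2 had 11 of 12 microglia markers. *Gfap* ran from 1.30 normalized counts in T-type cell 5, from 2 reads, to 11046 in NR cell 2. Microglia markers were present in part of the cells. Their summed level over 12 genes ran from 0.927 to 1325 in NR, from 0 to 2383 in T-type, from 3.50 to 16.9 in M-type and from 0 to 6.13 in S-type. NR had the highest level of 10 of the 12, such as 95.01 for *Cx3cr1*, while *P2ry12* had no NR read and *Tmem119* was read in 1 NR cell.

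Promoter sequences of 7 members were found in the RefSeq table (GRCm38.p6) and those of *C4b*, *Serping1* and *Ccl2* were not in it. The 5 printed here belong to the members with the most reads and to *C3*, and they show how differently the same 5 motifs fall on genes that are often induced together. Each line gives the 250 bases before the RefSeq start, 5′ to 3′ on the strand of the gene, with capitals where a motif matched on either strand.
*Cxcl10* (minus strand, chr5:92348890-92349139): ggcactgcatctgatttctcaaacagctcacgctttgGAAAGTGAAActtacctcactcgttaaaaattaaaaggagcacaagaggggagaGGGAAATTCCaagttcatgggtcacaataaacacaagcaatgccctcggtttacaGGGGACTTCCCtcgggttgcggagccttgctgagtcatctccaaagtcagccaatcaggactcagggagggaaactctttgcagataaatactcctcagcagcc
*C3* (minus strand, chr17:57228137-57228386): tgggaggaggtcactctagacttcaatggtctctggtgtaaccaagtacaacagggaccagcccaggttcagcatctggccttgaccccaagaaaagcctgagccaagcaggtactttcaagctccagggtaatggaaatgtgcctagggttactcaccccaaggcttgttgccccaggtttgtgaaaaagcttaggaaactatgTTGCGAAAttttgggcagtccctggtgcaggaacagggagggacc
*Serpina3n* (plus strand, chr12:104406458-104406707): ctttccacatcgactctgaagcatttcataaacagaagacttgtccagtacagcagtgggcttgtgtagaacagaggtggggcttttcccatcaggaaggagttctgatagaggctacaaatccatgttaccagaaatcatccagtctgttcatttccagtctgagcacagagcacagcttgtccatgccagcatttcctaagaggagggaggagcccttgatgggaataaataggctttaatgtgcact
*S1pr3* (plus strand, chr13:51408368-51408617): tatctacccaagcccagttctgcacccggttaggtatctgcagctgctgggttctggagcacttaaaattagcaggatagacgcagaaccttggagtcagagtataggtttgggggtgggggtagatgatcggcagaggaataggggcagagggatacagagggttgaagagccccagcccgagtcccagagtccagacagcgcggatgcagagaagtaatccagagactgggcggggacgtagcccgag
*Cd44* (minus strand, chr2:102901666-102901915): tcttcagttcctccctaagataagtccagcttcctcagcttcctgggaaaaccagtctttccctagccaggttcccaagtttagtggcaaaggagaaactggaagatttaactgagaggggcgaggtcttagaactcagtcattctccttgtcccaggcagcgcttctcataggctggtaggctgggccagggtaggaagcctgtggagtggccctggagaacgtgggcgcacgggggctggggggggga

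The motifs were the NF-kB site, the GAS element TTCNNNGAA bound by STAT proteins, the core of the interferon-stimulated response element (ISRE), the C/EBP site TTGCNNAA and the TATA box TATAAA, searched on both strands from 250 bases before to 50 bases after the start. Of 32851 promoters of that length, 8.46% held an NF-kB match, 8.30% a GAS match, 3.44% an ISRE match, 10.8% a C/EBP match and 13.6% a TATA match. *Cxcl10* held an ISRE match that began 213 bases before the start and NF-kB matches that began 159, 104 and 103 bases before it, of which the last 2 overlap. *C3* held a C/EBP match 45 bases before the start and a TATA match 15 bases after it, outside the printed stretch. *Serpina3n*, *S1pr3* and *Cd44* held none of these letters in the window. Of the members not printed, *Lcn2* held a C/EBP match and *Steap4* matches of NF-kB, GAS, C/EBP and TATA.

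The 10 genes fell into a group read in nearly all cells, *Cd44* and *S1pr3*, and a sparse group of 8. *Cd44* had a read in 22 of 22 cells and *S1pr3* in 19. *Serpina3n* had a read in 14 cells, *Serping1* in 13, *C4b* in 8, *Cxcl10* in 7, *C3* in 5, *Ccl2* in 4, *Lcn2* in 3 and *Steap4* in 1. With every cell thinned at random to the 2937786 reads of the smallest library these became 22, 17, 10, 10, 5, 5, 5, 4, 2 and 0 cells in the same order of genes. *Cd44* and *S1pr3* were thus still read in the most cells. The division is one of cells with a read and not of level, since the mean level of *Serpina3n* was 236 and that of *S1pr3* 196. At least 5 reads were found in 15 cells for *S1pr3* and in 9 for *Serpina3n*. Per kilobase of exon, the mean normalized count over the 22 cells was 1255 for *Cd44*, 114 for *Serpina3n*, 44.0 for *S1pr3*, 18.4 for *Cxcl10*, 8.34 for *Serping1*, 4.29 for *Ccl2*, 2.32 for *C3*, 1.71 for *C4b*, 0.182 for *Lcn2* and 0.0128 for *Steap4*. *Cd44* thus stood above 345.6 per kilobase for *Gfap*, the filament gene of astrocytes, and 95.01% of 11924 ranked genes lay at or below it.

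**Figure D1:**
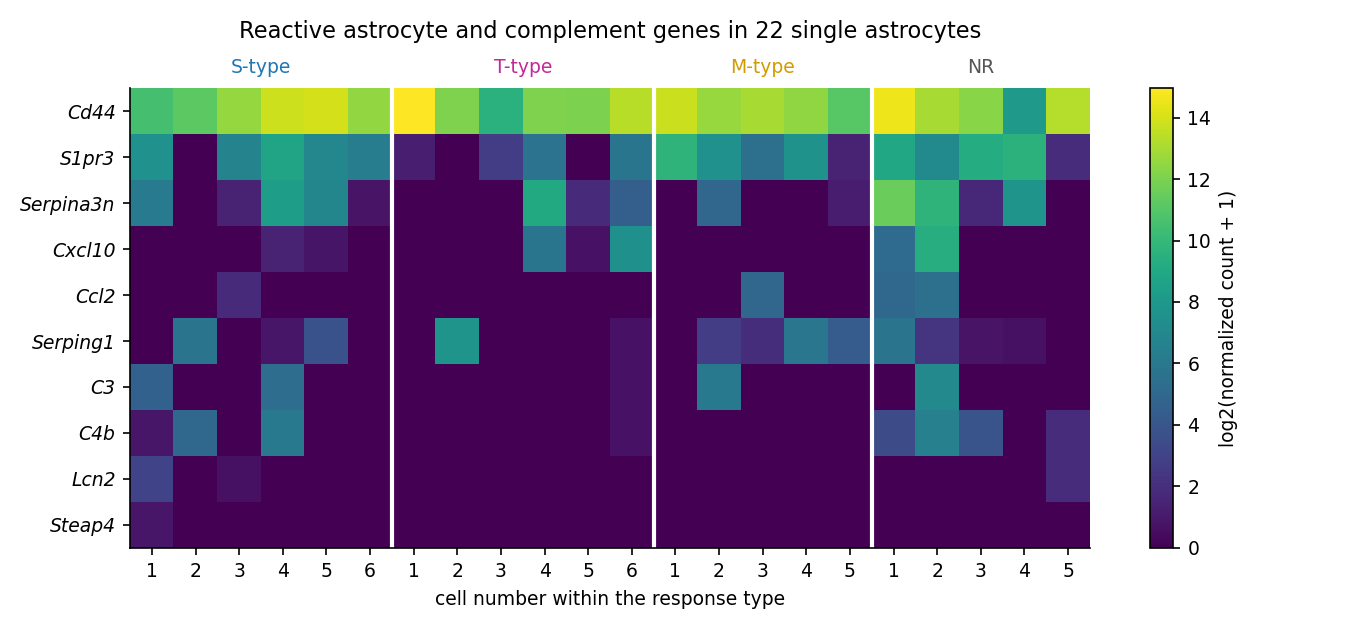
Log2 of the normalized count plus 1 for the 10 genes (rows) in the 22 cells (columns, numbered within each response type); dark purple is 0. *Cd44* is bright in every column, *S1pr3* is dim in the T-type columns, and the other 8 rows are mostly dark, with the highest values of 5 of them in NR cells 1 and 2.

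*Cd44*, the receptor for hyaluronan and osteopontin, was the member with the highest level and did not separate the response types. The gene lies on the minus strand at chr2:102811141-102901665 (GRCm38, GENCODE vM21). The 6 S-type cells had 1482, 2355, 6091, 14488, 16521 and 5888 normalized counts. The 6 T-type cells had 31766, 4250, 736, 4299, 4151 and 10544, and the 5 M-type cells had 13873, 6377, 8123, 5771 and 2169. The 5 NR cells had 24444, 8255, 5021, 270 and 10146, so the lowest and the second highest value of all 22 cells were both in NR. The type levels were 9627 in NR, 9291 in T-type, 7804 in S-type and 7263 in M-type, and every pair of types overlapped. The log2 ratio was -0.05 for T-type versus NR, -0.30 for S-type versus NR, -0.41 for M-type versus NR and 0.25 for T-type versus S-type. Leaving out 1 cell moved the ratio of T-type to NR between -1.01 (without T-type cell 1) and 0.65 (without NR cell 1), a range far wider than the counting interval of -0.07 to -0.03 that its 49099 and 73197 reads gave.

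*S1pr3*, a receptor for the lipid sphingosine-1-phosphate, was low in T-type. It lies on the plus strand at chr13:51408639-51422797. The 6 T-type cells had 1.41, 0, 5.46, 51.1, 0 and 55.7 normalized counts. The S-type cells had 186.4, 0, 102, 428, 122 and 77.2, so that 5 of 6 were above every T-type cell and S-type cell 2 had no read. The M-type cells had 853, 185.6, 45.01, 203 and 1.73, and the NR cells had 473, 136, 623, 768 and 2.78. Thus 3 of 5 M-type cells and 4 of 5 NR cells were above every T-type cell, and the groups overlapped through 1 low cell in S-type, 2 in M-type and 1 in NR.

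The level of *S1pr3* was 400 in NR, 258 in M-type, 152.7 in S-type and 18.9 in T-type. T-type was 21.1-fold below NR, a log2 ratio of -4.40 with a 95% counting interval of -4.68 to -4.14 from 117 and 3171 reads. T-type was also 8.06-fold below S-type (log2 ratio -3.01, interval -3.30 to -2.73). No left-out cell brought the ratio of T-type to NR outside -5.11 to -4.03 or that of T-type to S-type outside -3.72 to -2.36. The ratios against NR were -1.39 for S-type and -0.64 for M-type, and the latter moved to -1.88 without M-type cell 1. The T-type libraries include the shallowest, and with all cells thinned to the same total the ratio of T-type to NR was -4.22 and that of T-type to S-type -2.65. The median log2 ratio of all genes was -0.07 for T-type versus NR and -0.09 for T-type versus S-type, and with the CPM of pooled reads, where the median for T-type versus NR was -0.54, the *S1pr3* ratio was -4.50.

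**Figure D2:**
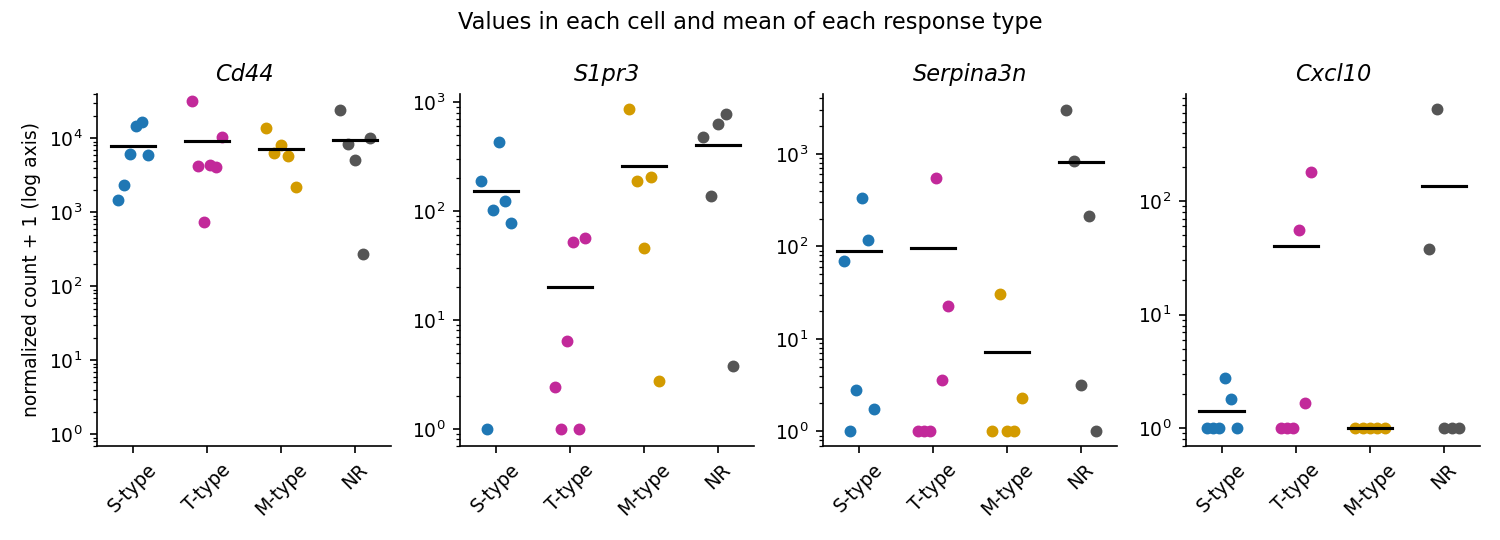
Normalized count plus 1 on a log axis for *Cd44*, *S1pr3*, *Serpina3n* and *Cxcl10*, with 1 point per cell and a black line at the mean of each type. T-type points of *S1pr3* lie at 55.7 or below, while the means of *Serpina3n* and *Cxcl10* are carried by 1 or 2 cells of a type.

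The acute-phase genes were led by *Serpina3n*, which encodes a secreted inhibitor of serine proteases and lies at chr12:104406729-104414329. The NR cells had 3014, 840, 2.16, 215 and 0 normalized counts, and the T-type cells had 0, 0, 0, 549, 2.59 and 21.8. The S-type cells had 69.2, 0, 1.83, 336, 115 and 0.742, and the M-type cells had 0, 29.4, 0, 0 and 1.30. High and absent values thus occurred within NR, S-type and T-type alike, while no M-type cell passed 29.4. The levels were 814 in NR, 95.6 in T-type, 87.3 in S-type and 6.14 in M-type, and NR cell 1 alone held 58.0% of the sum over the 22 cells. The log2 ratio against NR was -3.09 for T-type, -3.22 for S-type and -7.05 for M-type. Without NR cells 1 and 2 it turned to 0.40 for T-type and 0.27 for S-type and stayed at -3.56 for M-type. T-type and S-type differed by 0.13 with a counting interval of -0.06 to 0.33. Leaving out 1 cell moved this ratio between -4.16 (without T-type cell 4) and 1.35 (without S-type cell 4). With means of log2 values it was -1.37, and T-type cell 4 held 95.75% of the T-type sum. Neighbouring genes of the Serpina3 cluster are close in sequence, but of the 10 others in the table only *Serpina3a*, *Serpina3c*, *Serpina3f* and *Serpina3h* had any read, at most 3 each.

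*Lcn2*, which encodes the siderophore-binding protein lipocalin 2, had 12 reads in all. S-type cell 1 had 8, S-type cell 3 had 1, NR cell 5 had 3, and every other cell had none. *Steap4*, which encodes a metalloreductase, had 1 read in S-type cell 1. No T-type or M-type cell had a read of either gene, and as shares of cells with a read, 0 of 6 T-type cells allows up to 45.9% and 0 of 5 M-type cells up to 52.2% (exact binomial, 95%, counting error only, which says nothing of cells with transcripts too rare to be read). The log2 ratio of *Lcn2* in S-type versus NR was 1.21, with a counting interval of -0.79 to 3.73 that includes 0. The level in T-type was at least 2.07-fold below that in S-type, taking 3 reads over the 6 T-type cells as the limit, a bound that rests on the 8 reads of S-type cell 1. Both genes were at the bottom of the scale per length, and 12 reads and 1 read allow no firmer statement.

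*C3*, the central component of complement, had 400 reads in 5 of the 22 cells. It lies at chr17:57203970-57228136. NR cell 2 had 132 normalized counts, M-type cell 2 had 65.8, S-type cells 4 and 1 had 39.4 and 24.0, and T-type cell 6 had 0.641 from a single read. All 17 other cells had none, so that 4 of 5 cells in NR and in M-type were without a read. The level was 26.4 in NR, 13.2 in M-type, 10.6 in S-type and 0.107 in T-type. The log2 ratio against NR was -7.95 for T-type, with a counting interval of -13.26 to -5.46, -1.32 for S-type and -1.01 for M-type. Without NR cell 2 no read was left in NR, and the ratios of S-type and M-type turned to 4.35 and 4.67 against the limit of 3 reads.

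*C4b*, the other central component, was read in 8 cells and in 4 of 5 NR cells. It lies at chr17:34728380-34743882. The NR cells had 9.71, 90.8, 13.7, 0 and 2.78 normalized counts. The S-type cells had 0.888, 30.4, 0, 64.8, 0 and 0, T-type cell 6 had 0.641 from 1 read, and no M-type cell had a read. The highest cell was again NR cell 2, and S-type cell 4 came next. The level was 23.4 in NR, 16.0 in S-type and 0.107 in T-type. T-type was below NR by a log2 ratio of -7.78 (interval -13.09 to -5.28), and M-type was at least 73.3-fold below NR, a log2 bound of -6.20 that became -4.36 without NR cell 2. Without NR cells 1 and 2 the ratio of T-type to NR was -5.68, in the same direction, while that of S-type to NR turned from -0.55 to 1.55. *C4b* has a near-identical copy, *C4a*, which is listed at 0 reads in every cell, and reads that matched both equally would not have been counted as unique.

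*Serping1*, the C1 inhibitor gene at chr2:84765387-84775444, was spread over all types in a pattern unlike that of *C3* and *C4b*. The S-type cells had 0, 53.1, 0, 0.876, 12.6 and 0 normalized counts, and the T-type cells 0, 214, 0, 0, 0 and 0.641. The M-type cells had 0, 5.60, 2.81, 58.6 and 19.4, and the NR cells 53.4, 3.97, 0.719, 0.598 and 0. M-type and NR each had a read in 4 of 5 cells and T-type in 2 of 6. The level was 35.8 in T-type, 17.3 in M-type, 11.7 in NR and 11.1 in S-type. The first of these rests on the 59 reads of T-type cell 2, so that the log2 ratio of T-type to NR, 1.61, was -6.52 without that cell, -0.44 with the CPM of pooled reads and -0.32 with the mean CPM. T-type cell 2 also carried 2383 normalized counts of microglia markers, all from *Laptm5*, and the part of this in the result was not tested.

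*Cxcl10*, the interferon-inducible chemokine whose promoter above holds ISRE and NF-kB matches, was read in 7 cells. It is a single merged exon at chr5:92346638-92348889. NR cells 2 and 1 had 639 and 36.4 normalized counts, T-type cells 6 and 4 had 179 and 54.7, and T-type cell 5 had 0.648. S-type cells 4 and 5 had 1.75 and 0.784, and no M-type cell had a read. High values therefore occurred in NR and T-type cells, and NR cell 2 alone held 70.0% of the sum. The level was 135 in NR, 39.1 in T-type and 0.423 in S-type. T-type was above S-type by a log2 ratio of 6.53 (interval 4.97 to 8.82 from 311 and 3 reads), and this stayed between 4.71 and 7.96 when any cell was left out. The T-type level came almost wholly from cells 6 and 4, which leaving out 1 cell at a time cannot show. With means of log2 values the ratio was 1.95. T-type was below NR by -1.79, which turned to 2.10 without NR cell 2. S-type was below NR by -8.32, and M-type was at least 423-fold below NR, a log2 bound of -8.73. Without NR cell 2 these became -4.43 and -4.83, and without NR cells 1 and 2 no NR read was left. The exon of *Cxcl10* overlaps that of *Art3* by 133 bases on the opposite strand, and whether the counting used the strand is not given in the sources used here. *Art3* had 261 reads in NR cell 2, the cell with the highest *Cxcl10* value, 1 read in NR cell 1, 953 reads in NR cell 5, where *Cxcl10* had none, and 0 reads in T-type cells 4, 5 and 6. The part of shared reads in the *Cxcl10* values was not tested.

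*Ccl2*, which encodes the monocyte chemoattractant MCP-1 and lies at chr11:82035571-82037453, was read in 4 cells. NR cells 1 and 2 had 31.0 and 44.8 normalized counts, M-type cell 3 had 29.1 and S-type cell 3 had 2.44. No T-type cell had a read, and the T-type level was at least 24.4-fold below NR. The log2 ratio against NR was -5.22 for S-type and -1.38 for M-type. Without NR cells 1 and 2 no NR read was left and the ratio for M-type turned to 3.00 against the limit of 3 reads.

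The sparse members met in a few cells. NR cell 2 had a read for 8 of the 10 genes and was the highest cell for *C3*, *C4b*, *Cxcl10* and *Ccl2*. NR cell 1, S-type cells 1 and 4 and T-type cell 6 had a read for 7, while T-type cells 1, 2 and 3 and M-type cell 1 had a read for 2. The summed level of the 8 sparse genes was 3145 in NR cell 1 and 1751 in NR cell 2, and next 604 in T-type cell 4, 443 in S-type cell 4 and at most 215 in the other 18 cells. NR cells 1 and 2 together held 68.6% of it. Most of this sum, 72.9%, came from *Serpina3n*, and of the other 7 genes together NR cells 1 and 2 held 53.9%, with 13.5% for *Serping1* and none for *Lcn2* and *Steap4*. The same cells held 14.1% of the *S1pr3* sum and 17.5% of the *Cd44* sum. Fewer transcripts per cell and loss of rare transcripts in the 2 rounds of amplification cannot be told apart from these counts.

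Microglia markers were high in the same NR cells but not only there. NR cell 1 had 781 normalized counts over the 12 markers, with 9 of 12 read, and NR cell 2 had 836, with 11 of 12 read. T-type cell 4, next after these 2 cells in the sparse member sum at 604, had 640, with 5 of 12 read. Of that, 631 came from *Laptm5*. NR cell 4 had 1325 with a *Serpina3n* value of 215 and no read of *C3*, *C4b*, *Cxcl10* or *Ccl2*. T-type cell 1 had 222 with 11 of 12 markers read and a summed level of 0 for the sparse members. S-type cell 4, the S-type cell with the most sparse member counts, had 6.13. NR cell 2 was also the highest cell for *Gfap*, at 11046 normalized counts or 34.4% of its sum. The part of microglial RNA in the values of NR cells 1 and 2 was not tested.

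**Figure D3:**
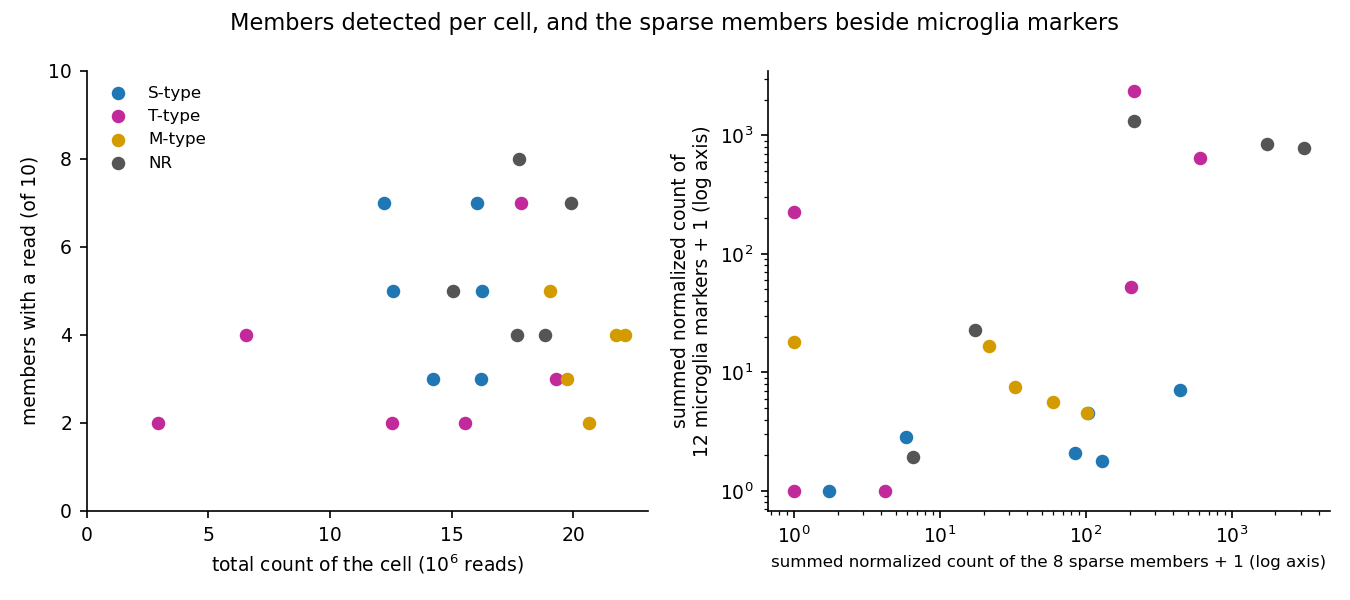
Left, number of the 10 genes with a read against the total count of the cell; right, summed normalized count plus 1 of the 8 sparse genes on the horizontal axis and of 12 microglia markers on the vertical axis, both log axes, with 1 point per cell coloured by response type. The cell with 8 genes is NR cell 2, and NR cells 1 and 2 are the 2 points at the far right of the right panel, with sparse gene sums of 3145 and 1751.

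Read as calls of at least 2-fold, the members were more often lower than higher in the responding types. In T-type versus NR, 6 of 10 were lower (*Serpina3n*, *C3*, *C4b*, *Cxcl10*, *Ccl2* and *S1pr3*) and *Serping1* was higher, while 32.2% of the 12719 genes that 5 or more cells had read were lower and 27.9% higher. In S-type versus NR, 5 were lower and *Lcn2* was higher, against 22.3% and 25.0% of all genes. In M-type versus NR, 5 were lower and none higher, against 27.9% and 19.6%. The 3 contrasts share the same 5 NR cells and are not independent of each other. In T-type versus S-type, 4 were lower (*Lcn2*, *C3*, *C4b* and *S1pr3*) and 2 higher (*Serping1* and *Cxcl10*), against 32.0% and 25.3%. With the CPM of pooled reads, 40.0% of all genes were lower and 18.2% higher in T-type versus NR, and 39.7% and 16.1% in T-type versus S-type, and with means of log2 values 48.5% and 12.6%, and 51.9% and 8.52%, so the background of the T-type contrasts depends on the scaling. *Lcn2*, *Ccl2* and *Steap4* had a read in fewer than 5 cells and would not have been among the 12719 genes. Of the other 7 members, 5 were lower and 1 higher in T-type versus NR. In S-type and in M-type versus NR, 4 of these 7 were lower and 0 higher, and in T-type versus S-type 3 were lower and 2 higher.

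NR cells 1 and 2 carried most of the lower calls. Without NR cells 1 and 2, an alternative chosen after their values were seen, 2 members were lower and 2 higher in T-type versus NR, 1 lower and 3 higher in S-type versus NR, and 2 lower and 3 higher in M-type versus NR. The median log2 ratio was -3.75 over the 8 members with a ratio in T-type versus NR, -1.32 over 9 in S-type versus NR, -1.19 over 8 in M-type versus NR and -0.46 over 8 in T-type versus S-type. The medians over all genes were -0.07, 0.03, -0.20 and -0.09. The members' medians against NR became 0.63, 0.60 and 0.50 without NR cells 1 and 2, over the 6, 7 and 7 members that still had a ratio. Those that no longer had one were *C3* and *Ccl2* in T-type, *Cxcl10* and *Ccl2* in S-type and *Cxcl10* in M-type, whose ratios or bounds had been below -4. For no member did the cells of the types in any of the 4 contrasts stand fully apart, which 0.189% of all genes did upward and 0.802% downward in T-type versus NR, 0.204% in each direction in S-type versus NR, 0.275% and 0.322% in M-type versus NR, and 0.126% and 0.645% in T-type versus S-type.

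**Figure D4:**
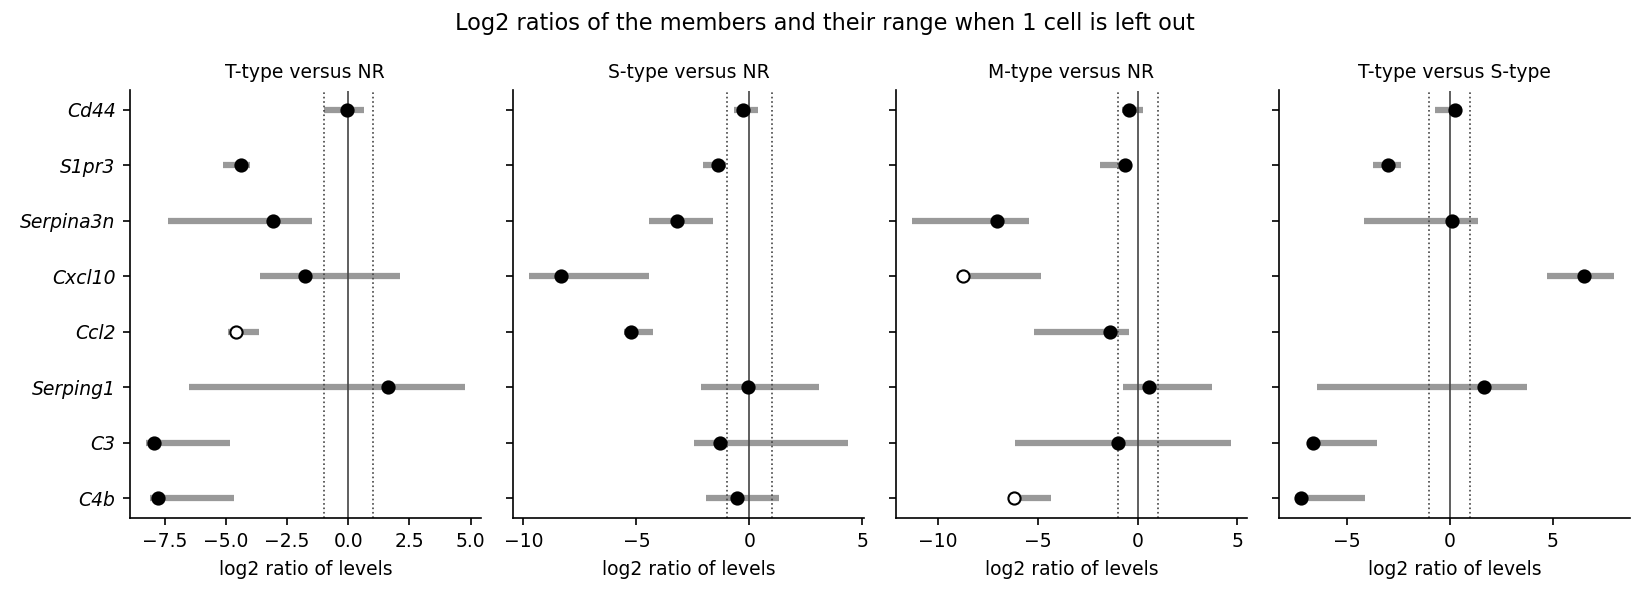
Log2 ratio of the levels (horizontal axis) of 8 members in the 4 contrasts; black points are ratios, open points are bounds against a type without a read, and grey bars are the range when 1 cell is left out. Dotted lines mark 2-fold, and the bar of *S1pr3* in T-type versus NR runs from -5.11 to -4.03 while that of *Serping1* crosses 0.

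Other complement genes were examined by lists that include the members. Of 25 complement components, 18 had a read and 12 were read in 5 cells or more. Of these 12, 10 were at least 2-fold lower and none higher in T-type versus NR, 7 lower and 1 higher in S-type versus NR, 10 lower and none higher in M-type versus NR, and 5 lower and 4 higher in T-type versus S-type. Over all genes the shares lower in these contrasts were 32.2%, 22.3%, 27.9% and 32.0%. The 9 microglia markers measured lay the same way, with 7 lower in T-type, 9 in S-type and 9 in M-type versus NR and none higher, and the 3 genes of C1q, a product of microglia in the brain, were in the list of components with their highest values in NR cell 4 (*C1qa*, 104), NR cell 2 (*C1qb*, 68.1) and NR cell 1 (*C1qc*, 74.1). The part of microglial RNA in these counts was not tested. Single NR cells carried much of some NR levels. NR cell 2 held 100% of the NR sum of *C3* and 77.6% of that of *C4b*, and NR cell 4 held 51.8% of the *C1qa* sum over all cells. The dependence of the list counts on single cells was not tested. The components with the highest level beside the members were *Hc*, which encodes C5, *C1rl* and *C1ra*. The level of *Hc* was 111 in NR, 105 in S-type, 152 in M-type and 197 in T-type, and T-type cell 6 alone had 1146 normalized counts. *C1ra*, a protease of the first step, had a level of 43.7 in NR, 39.9 in S-type, 14.6 in M-type and 1.05 in T-type. *C1rl* had 86.3 in NR, 24.5 in T-type, 1.01 in S-type and 0.958 in M-type.

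The calls of the regulators and receptors of complement went in both directions in T-type versus NR, and few genes were measured. Over all genes, 32.2% were lower and 27.9% higher in T-type versus NR, 22.3% and 25.0% in S-type, and 27.9% and 19.6% in M-type. Of 7 regulators measured, 3 were lower and 2 higher in T-type versus NR, 2 lower and none higher in S-type versus NR, and 4 lower and 1 higher in M-type versus NR. *Cd59a*, which blocks the membrane attack complex, and *Clu*, which encodes clusterin, were read in all 22 cells, with *Cd59a* at 2904 in NR, 3418 in T-type, 2042 in S-type and 1212 in M-type. Of 4 receptors measured, 2 were lower and 1 higher in T-type versus NR, and 3 were lower in S-type and in M-type versus NR with none higher. *C3ar1*, the receptor for the C3a fragment that microglia also express, had 466 normalized counts in NR cell 2, 66.5% of its sum. *Itgb2*, an integrin chain of leukocytes, had 1779 in T-type cell 4, 98.4% of its sum.

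**Figure D5:**
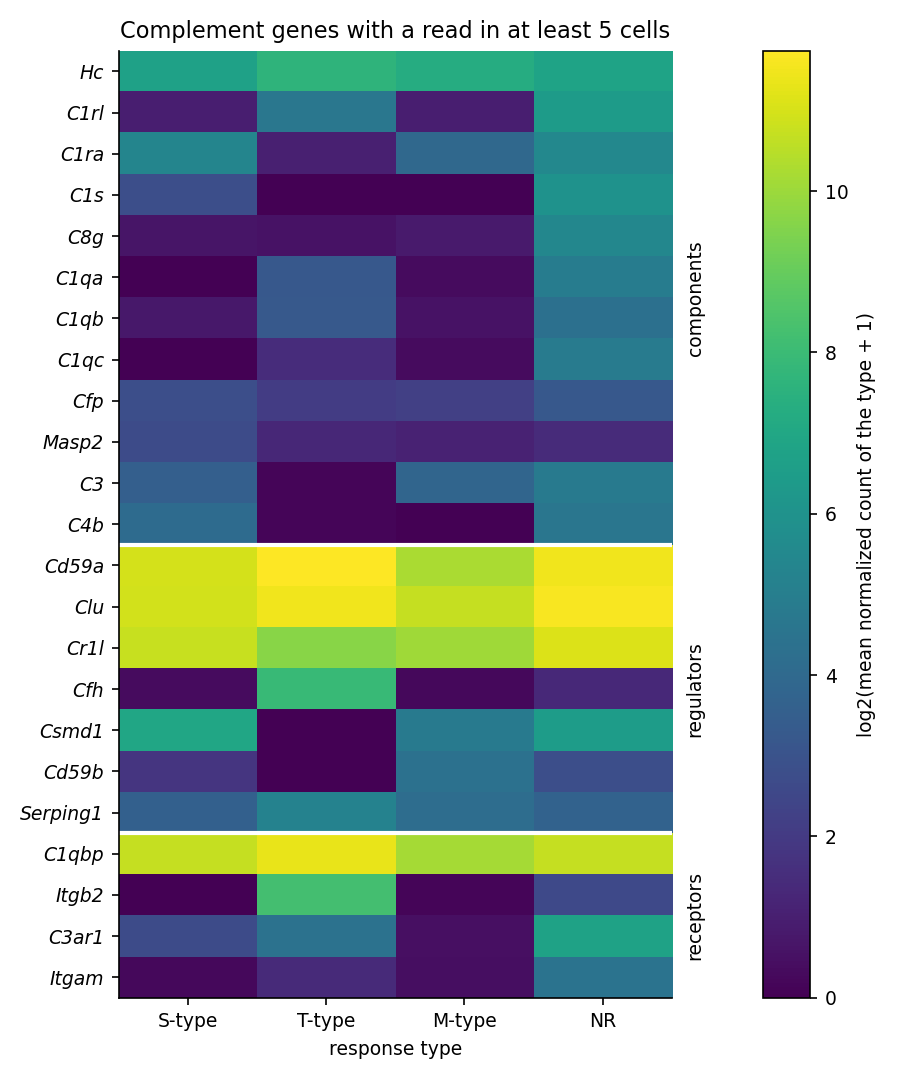
Log2 of the mean normalized count plus 1 of each type (columns) for the complement components, regulators and receptors read in 5 cells or more (rows). *Cd59a*, *Clu*, *Cr1l* and *C1qbp* are bright in all types, while the components are dimmer; *C3* is lowest in T-type and *C4b* in T-type and M-type.

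The wider sets of reactive astrocyte genes are read against the shares over all genes, which were 32.2% lower and 27.9% higher in T-type versus NR, 22.3% and 25.0% in S-type versus NR, and 27.9% and 19.6% in M-type versus NR. Of 11 measured genes that rise in reactive astrocytes of any kind, 5 were lower and 3 higher in T-type versus NR, 5 lower and 1 higher in S-type versus NR, and 4 lower and none higher in M-type versus NR. This set includes members, and *Serpina3n*, *Cxcl10* and *S1pr3* are among its lower genes in T-type versus NR. Its counts thus repeat part of the member calls and are not independent of them. *Vim*, the vimentin filament gene, had a level of 206056 in T-type against 83941 in NR, 68022 in S-type and 131540 in M-type. *Gfap* had 3056 in NR, 1872 in M-type, 985 in S-type and 254 in T-type. The heat shock gene *Hspb1* had 6797 in T-type and 264 in NR, and T-type cell 2 alone, with 38442 normalized counts, held 85.6% of its sum over all cells. *Vim* and *Gfap*, the paired filament genes of reactive astrocytes, thus stood in opposite order in T-type and NR.

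Of 12 measured genes of the neuroinflammatory (A1) set, 8 were lower and 2 higher in T-type versus NR, 4 lower and 1 higher in S-type versus NR, and 6 lower and 2 higher in M-type versus NR. These include the members *C3* and *C4b*, both lower in T-type versus NR, and *Serping1*, which was higher there. Over all genes the shares lower and higher in these contrasts were 32.2% and 27.9%, 22.3% and 25.0%, and 27.9% and 19.6%. *Ggta1*, a galactosyltransferase gene, had a level of 3330 in NR, 785 in M-type, 326 in S-type and 109 in T-type. *Srgn*, which encodes a granule proteoglycan common in blood cells and microglia, had no read in any S-type cell and 0.607 to 645 normalized counts in the 5 NR cells, so its cells did not overlap. Downward separation of this kind occurred in 0.204% of all genes in that contrast. For *Srgn* it rested on a lowest NR value of 0.607, the size of a single read, and NR cell 2 held 81.6% of the *Srgn* sum. Of 10 measured genes of the injury-associated (A2) set, 3 were lower and 3 higher in T-type versus NR, 4 lower and 3 higher in S-type versus NR, and 3 lower and 2 higher in M-type versus NR. *Tm4sf1* and *Emp1*, membrane protein genes of that set, had levels of 20032 and 3093 in T-type and of 8584 and 555 in NR, with 12101 normalized counts of *Emp1* in T-type cell 6 alone.

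The calls of partners of single members, here and in the next paragraph, are read against the shares over all genes. These were 32.2% lower and 27.9% higher in T-type versus NR, 22.3% and 25.0% in S-type, and 27.9% and 19.6% in M-type. Of 17 chemokine genes, 5 were measured, and 4 of them were lower in T-type, 3 in S-type and 3 in M-type versus NR, with 1 higher in M-type. The 5 include the member *Cxcl10*, which counts as lower in each of these contrasts. *Cxcl1*, a neutrophil chemokine, had 3604 normalized counts in NR cell 2, 94.4% of its sum, while *Cxcl12* had its highest level in M-type, at 716, of which M-type cell 1 with 2424 was the main part. Of 3 chemokine receptors measured, 2 were lower and 1 higher in T-type versus NR, 1 lower and 2 higher in S-type, and 2 lower and none higher in M-type. Neither *Cxcr3*, the receptor for CXCL10, nor *Il1a*, *Il1b* and *Tnf*, cytokines that induce many of the members, had a read in any cell.

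Of 20 measured genes of NF-kB and cytokine signalling, 10 were lower and 2 higher in T-type versus NR, 6 lower and 3 higher in S-type, and 10 lower and 4 higher in M-type. Of 7 measured genes of the sphingosine-1-phosphate axis, which includes *S1pr3*, 2 were lower and 1 higher in T-type versus NR, 2 lower and 2 higher in S-type, and 3 lower and 2 higher in M-type. *S1pr1*, the receptor of that family with the highest level per length here (602 per kilobase), had levels of 2351 in NR, 2158 in S-type, 1354 in M-type and 1480 in T-type. The T-type levels of the paired receptors thus were 1480 for *S1pr1* and 18.9 for *S1pr3*. Of 8 measured genes around CD44, *Cd44* itself included, 2 were lower and 3 higher in T-type versus NR, 2 lower and none higher in S-type, and none past 2-fold in M-type. *Ezr*, which links CD44 to actin, had a level of 12864 in NR and 13875 in T-type. Of 11 measured genes of iron handling, the setting of *Lcn2* and *Steap4*, 2 were lower and 1 higher in T-type versus NR, 2 lower and 2 higher in S-type, and 1 lower and 2 higher in M-type.

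Across the 22 cells the gene most like *S1pr3* among 9455 genes was *Lss*, with a Pearson r of 0.85 between log2 values. The value for *S1pr3* against *Cd44* was 0.09. These are descriptions over 22 cells that share their depth and amplification differences, and the best of 9455 genes is high by selection.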

How the data were processed

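RNA of 22 single astrocytes was amplified by the authors in 2 rounds of antisense RNA synthesis and sequenced as stranded libraries with paired reads and no molecular identifiers. The authors trimmed and aligned the reads to GRCm38 with STAR and deposited raw counts of unique exonic reads per gene, made with VERSE. Versions and the strand setting of the counting are not given in the sources used here.

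Size factors were medians of ratios over 3670 genes that all cells had read (Python 3.11.15, NumPy 2.4.6, pandas 2.3.3). A level of 0 was replaced by 3 reads over the summed size factors of the type, no ratio was formed where both types had at most 3 reads, and other ratios against it are bounds. Intervals are exact, at 95% (SciPy 1.17.1), and cover counting error only. Genes counted as measured had a read in at least 5 cells. Calls are at least 2-fold. No test between types was run, since each type is 1 sample. Cells were numbered in accession order. Positions and exon lengths are from GENCODE vM21. The ratio step was tested on simulated data.

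The 10 members and the gene lists (reactive astrocyte, complement, chemokine, cytokine, Serpina3, iron, sphingosine-1-phosphate, CD44 and cell type markers) were chosen with earlier results of these data known. All members are named, and of each list at most the 3 genes with the highest mean level, plus those whose cells did not overlap, and the gene most like a widely read member; 1 gene that this rule selects is not reported here. Genes outside this rule (*C1qa*, *C1qb*, *C1qc*, *C4a*, *Art3*, *Serpina3h*, *Cxcr3*, *Il1a*, *Il1b*, *Tnf*, *P2ry12* and *Tmem119*) were named after their values were seen. The other marker lists ran, in summed normalized counts per cell, from 13592 to 209150 (astrocyte), 526 to 53351 (oligodendrocyte lineage), 467 to 32067 (neuron), 0 to 2499 (endothelial) and 6198 to 140634 (mural cell and fibroblast). Alternatives were CPM (pooled or averaged), TMM factors (edgeR 4.0.16), thinned cells, a pseudocount of 1, means of log2 values, other filters and leaving out each cell.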

Additional observations from a re-analysis of the deposited data

Results flagged for a closer look

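Dixon's test on log2 values within each type, applied to 32 groups of 5 or 6 cells, marked 12 in which a cell stood far from the others, 11 of them by a high value. Chance marks about 1 in 20 groups of normally distributed values, a rate that cannot be applied here, because in 8 of the 11 high cases the other cells of the type had no read and the gap is the whole range by construction. The 12 were, in normalized counts, *C3* in NR cell 2 (132.2), M-type cell 2 (65.82) and T-type cell 6 (0.6405), *C4b* in T-type cell 6 (0.6405), *Serping1* in T-type cell 2 (214, from 59 reads), *Serpina3n* in M-type cell 2 (29.41), *Ccl2* in M-type cell 3 (29.07) and S-type cell 3 (2.436), *Lcn2* in S-type cell 1 (7.102, from 8 reads) and NR cell 5 (2.781, from 3 reads), and *Steap4* in S-type cell 1 (0.8877, from 1 read). The low value was *S1pr3* in S-type cell 2, at 0 reads in a library of 14249029.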

How the results depend on the processing

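No paired analysis was possible because no types were compared by a test. The labels give no replicate numbers; the number that ends a sample title recurs in some cells of different types, and its meaning is not given in the sources used here. The log2 ratios of *S1pr3* in T-type versus NR and versus S-type kept their direction and stayed past 2-fold under all alternatives. Members at least 2-fold higher in T-type versus NR numbered 0 under both CPM scalings, TMM, thinning and means of logs, in place of 1. Those in S-type versus NR numbered 0 under thinning, the pseudocount, means of logs and a mean level of at least 10, in place of 1. In M-type versus NR, 1 was higher under means of logs, and lower were 3 at a mean level of at least 10 and 4 under TMM, the pseudocount and means of logs; *C3* stood at -1.01 and was -0.81 under TMM, -0.95 with the pseudocount and -0.20 under means of logs. In T-type versus S-type, 1 was higher under both CPM scalings, thinning and means of logs, and 2 were lower at a mean level of at least 10. Without NR cells 1 and 2, the counts lower and higher were 2 and 2 in T-type, 1 and 3 in S-type, and 2 and 3 in M-type.

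Leaving out 1 cell gave 4 to 7 lower and 0 to 2 higher in T-type versus NR, 4 to 6 and 0 to 2 in S-type versus NR, 3 to 5 and 0 to 1 in M-type versus NR, and 3 to 4 and 1 to 3 in T-type versus S-type.

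Some log2 ratios changed sign. *Serping1* in T-type versus NR became -0.44 and -0.32 under pooled and mean CPM, -0.50 under means of logs and -6.52 without T-type cell 2; versus S-type it became -0.012 under mean CPM, -0.33 under means of logs and -6.44 without T-type cell 2. *C3* in S-type versus NR became 0.25 under means of logs, and without NR cell 2 it became 4.35 in S-type and 4.67 in M-type, and *Cxcl10* in T-type 2.10. Over single left-out cells the ranges of these ratios were -6.52 to 4.76 for *Serping1* in T-type versus NR and -6.44 to 3.74 versus S-type, -3.61 to 2.10 for *Cxcl10* in T-type versus NR, and -2.46 to 4.35 in S-type and -6.13 to 4.67 in M-type for *C3* versus NR. Without NR cells 1 and 2 the members' medians became 0.63, 0.60 and 0.50, *Serpina3n* 0.40 in T-type and 0.27 in S-type, *Cxcl10* 5.75 in T-type, *C3* 3.87 in S-type and 4.18 in M-type, and *Ccl2* 3.00 in M-type. The cause was not tested, except that the *C3* and *Ccl2* values without NR cells are ratios to a type left without a read. CPM and means of logs moved the median of all genes in T-type versus NR from -0.07 to -0.54 (pooled), -0.46 (mean) and -0.97 (logs); single members moved by other amounts.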
